A study of Mus musculus with 4 samples.

Results

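Cholesterol synthesis and SREBP control were followed in mouse embryonic stem cells through 26 genes chosen by name: 7 of the early mevalonate pathway, 11 of the late sterol pathway and 8 of sterol control and transport. All 26 were among the 24428 genes of the count tables. The cells, of strain 129SvEv and grown untreated in serum with LIF, were heterozygous for alleles of Smarca4, the ATPase of the BAF chromatin remodelling complex. Cells of both groups carried a wild-type Smarca4 fused to GFP. The second copy, fused to the V5 tag, was wild-type in the WT group and G784E in the other, a mutation described as dominant-negative in the title of the study. RNA-seq of poly(dT)-captured RNA gave 2 libraries per group (though library source is labelled genomic), and the labels do not say whether these came from separate cultures or clones, so that the p-values measure the spread between libraries, which may be technical.

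Cholesterol is built in steps. The early mevalonate enzymes turn acetyl-CoA into mevalonate and then into isoprenoid phosphates, and the late sterol enzymes join these into squalene, close it into lanosterol and trim lanosterol to cholesterol. When membrane sterol is scarce, the escort protein SCAP carries the membrane-bound factor SREBP2 to the Golgi, where proteases release it to switch on genes of the pathway. When sterol is plentiful, INSIG proteins hold SCAP back, and the oxysterol receptors known as LXRs raise export genes such as Abca1. Cells in serum can also take cholesterol up from lipoproteins.

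Gene counts per library were 6226145 and 8895433 in G784E and 7027108 and 10083442 in WT, so that 3 counts, the limit that a count of 0 allows, equalled 0.305 to 0.491 CPM, the TMM-scaled count unit used throughout. The libraries numbered 1 stood apart from those numbered 2 in both groups: reads in olfactory receptor genes were at 685 and 684 CPM in the former and 282 and 193 CPM in the latter, before scaling. Smarca4 itself, counted over both alleles, was at 3868 and 3580 CPM in G784E and 2423 and 2553 CPM in WT and did not pass the test described next (log2 fold change 0.58, SE 0.19; edgeR, adjusted p = 0.119). It passed with upper-quartile scaling (0.59, edgeR, adjusted p = 0.0108), in DESeq2 (0.58, adjusted p = 0.00808) and by limma-voom (0.58, adjusted p = 0.0300). Of 12 tested stem cell markers 0 passed. Their median log2 fold change was 0.21, 11 were above 0, and for 7 both G784E libraries lay above both WT libraries. Over all 15763 tested genes, 7859 were above 0, and for 19.4% both G784E libraries lay above both WT libraries. Pou5f1 was at 176 and 239 CPM in WT and 188 and 229 CPM in G784E, and Nanog at 134 and 155 CPM in WT and 187 and 227 CPM in G784E.

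A single member, Pmvk, fell in G784E, and most other members had lower values there without passing the test. Of 25 tested members, 1 was lower and 0 were higher when tested by quasi-likelihood in edgeR, with a Benjamini-Hochberg adjusted p below 0.05 as the call. Over all 15763 tested genes, 1.89% were called lower and 0.672% higher, so the members' share of 1 in 25 was near the background. In 21 of the 25 the log2 fold change (G784E over WT) was below 0, with a median of -0.30 and a range of -1.04 to 0.36. The median over all tested genes was -0.0016. Both G784E libraries lay below both WT libraries for 13 members and above them for 1 (Scap), where 19.4% of tested genes lay on each side. For 8 members the unadjusted p was under 0.05, all with lower values, against 6.48% of tested genes on that side. Fewer cells of one type and less RNA per cell cannot be told apart in these bulk samples.

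**Figure D1:**
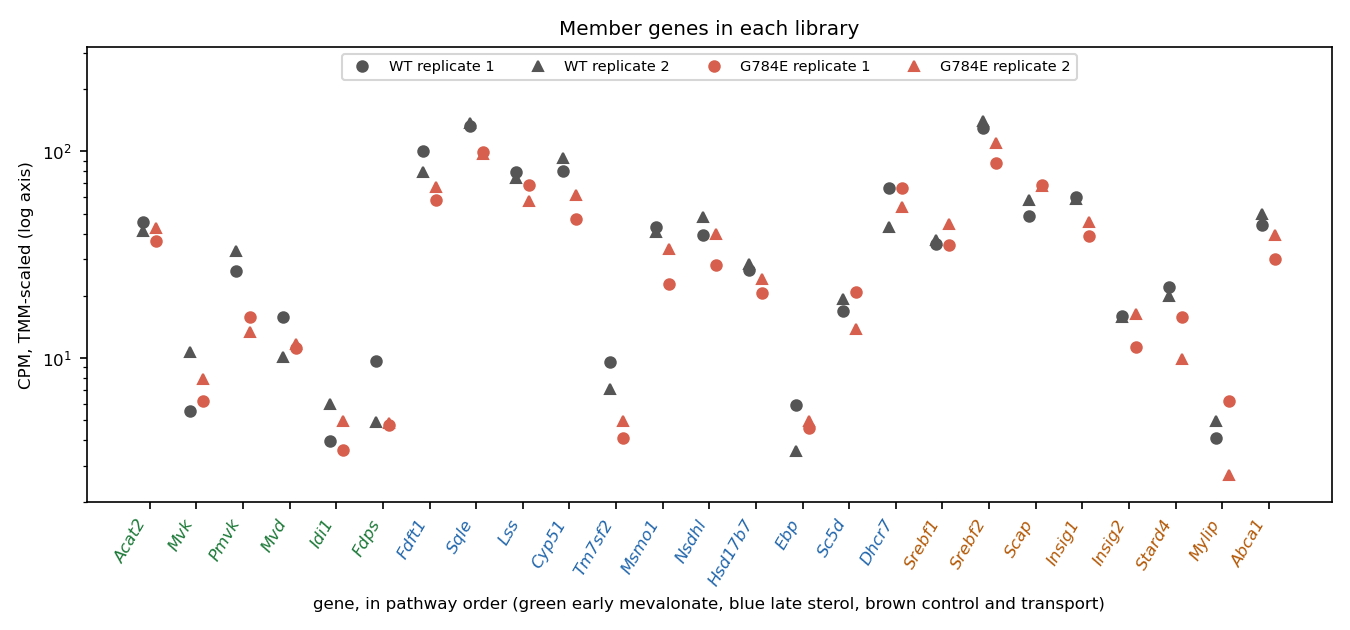
Level of each of the 25 tested members in each library, in CPM on a log axis and in pathway order; circles are the libraries numbered 1, triangles those numbered 2, grey WT and red G784E. Red lies below grey without overlap for 13 genes, among them Pmvk, Fdft1, Sqle, Cyp51, Insig1 and Srebf2.

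The promoters of 4 members whose groups did not overlap are shown because these genes stand for the 3 roles: Pmvk, the called one, Cyp51 and Msmo1 of the late pathway, and Insig1 of sterol control. Each is the RefSeq window of 250 bases before to 50 after the start, from build GRCm38.p6, 5′ to 3′ on the gene's strand, with matches in capitals to the NF-Y box CCAAT, read as CCAAT or as its complement. NF-Y is a factor known to act beside SREBP at sterol genes. The windows lie at chr3:89454291-89454590 (Pmvk, + strand), chr5:4104648-4104947 (Cyp51, - strand), chr8:64733529-64733828 (Msmo1, - strand) and chr5:28071162-28071461 (Insig1, + strand).
Pmvk: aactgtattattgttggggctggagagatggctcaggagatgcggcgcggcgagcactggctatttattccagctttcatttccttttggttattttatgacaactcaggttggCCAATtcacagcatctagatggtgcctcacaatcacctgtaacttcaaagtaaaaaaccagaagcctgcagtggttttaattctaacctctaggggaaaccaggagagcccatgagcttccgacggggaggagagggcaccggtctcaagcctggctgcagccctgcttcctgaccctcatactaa
Cyp51: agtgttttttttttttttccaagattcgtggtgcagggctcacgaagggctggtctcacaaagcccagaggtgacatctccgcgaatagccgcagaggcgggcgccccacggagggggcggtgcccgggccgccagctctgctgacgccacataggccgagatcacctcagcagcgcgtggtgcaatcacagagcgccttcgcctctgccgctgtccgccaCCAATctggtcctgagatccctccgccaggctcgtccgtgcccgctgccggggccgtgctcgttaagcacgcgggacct
Msmo1: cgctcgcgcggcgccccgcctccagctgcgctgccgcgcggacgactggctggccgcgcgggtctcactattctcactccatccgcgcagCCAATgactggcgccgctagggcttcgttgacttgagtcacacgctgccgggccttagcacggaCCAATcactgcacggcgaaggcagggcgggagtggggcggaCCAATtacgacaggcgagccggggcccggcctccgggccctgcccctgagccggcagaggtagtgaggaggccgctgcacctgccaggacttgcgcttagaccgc
Insig1: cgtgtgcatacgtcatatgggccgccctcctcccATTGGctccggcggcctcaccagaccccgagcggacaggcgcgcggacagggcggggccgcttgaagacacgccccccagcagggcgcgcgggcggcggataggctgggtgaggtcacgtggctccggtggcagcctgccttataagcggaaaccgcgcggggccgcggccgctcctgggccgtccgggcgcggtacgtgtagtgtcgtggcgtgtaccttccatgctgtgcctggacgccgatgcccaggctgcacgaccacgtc

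Msmo1 held 3 matches to CCAAT and the other windows printed 1 each. A second RefSeq start of Pmvk had none. RefSeq windows were found for 22 members, 30 windows in all. The NF-Y box, searched on both strands, was in at least 1 window of 19 of these 22 members, and of 14 of the 15 synthesis genes among them; it was in 42.4% of the 11916 tested genes matched by symbol and in 37.4% of all 32851 windows. The Sp1 box GGGCGG was in 21 of the 22 members, against 63.8% of tested genes and 35.7% of windows. The E-box CACGTG was in 6 of the 22, Insig1 among them, against 11% of tested genes and 7.15% of windows. A form of the sterol regulatory element, TCACNCCAC, was in 1 of the 22, Hmgcs1, against 1.55% of tested genes and 1.24% of windows. Other forms of this element were not searched, so a window without a match may still hold one. All motifs were read on both strands, no match overlapped one of another motif in these windows, and a match describes the window only.

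**Figure D2:**
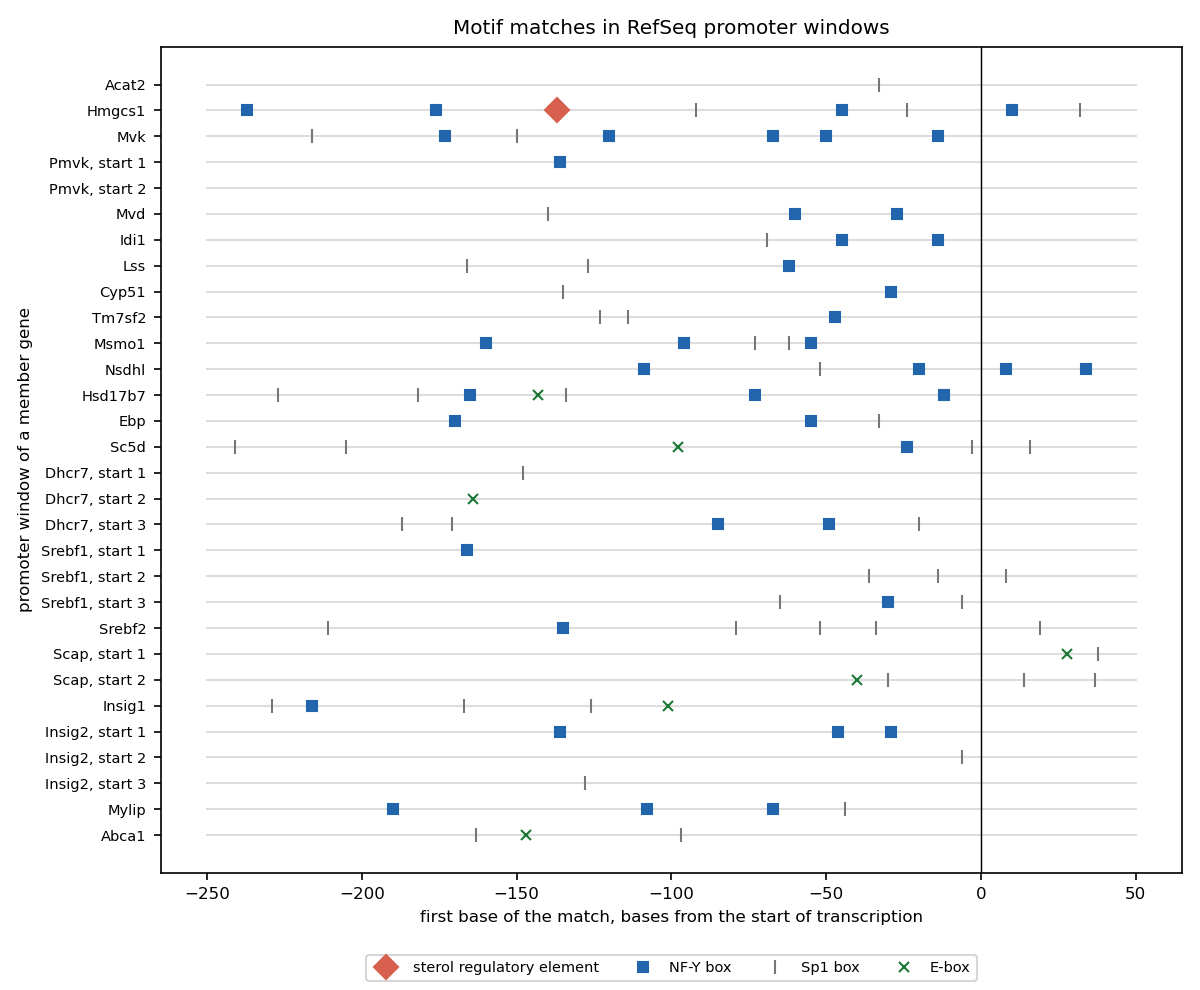
Position of each motif match (x axis, bases from the start of transcription) in the 30 RefSeq windows of 22 members (y axis, in pathway order, with genes of several starts given once per start). Blue squares, the NF-Y box, are in 19 of the 22 genes, and the red diamond, the sterol regulatory element, is in Hmgcs1.

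Of the early mevalonate genes, 6 of 7 were tested, 1 fell, against 1.89% of tested genes called lower, and 5 did not pass. For 2 of the 6 both G784E libraries lay below both WT libraries and for 0 above, against 19.4% of tested genes on each side. The log2 fold changes of the 6 had a median of -0.21. That median was -0.077 without G784E replicate 1, -0.40 without G784E replicate 2 and -0.34 without WT replicate 2, while that of the late sterol genes stayed between -0.42 and -0.33. Pmvk, which encodes phosphomevalonate kinase, was at 26.4 and 33.1 CPM in the WT libraries and at 15.7 and 13.3 CPM in the G784E libraries. Every G784E value was below every WT value, and Pmvk fell 2.06-fold (log2 fold change -1.04, SE 0.26; edgeR, adjusted p = 0.0258). The call was lost in DESeq2 (-1.04, adjusted p = 0.0722), without WT replicate 1 (-1.19, edgeR, adjusted p = 0.0783) and without WT replicate 2 (-0.87, edgeR, adjusted p = 0.429). Over 12 alternatives that model the group alone, the adjusted p of Pmvk ran from 0.00455 to 0.429, with 9 calls and the same direction in all 12. No annotated transcript of another gene shared 200 aligned bases at 95% identity with Pmvk, and no other gene overlapped its exons.

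The neighbours of Pmvk in the pathway did not separate the groups. Mvk, mevalonate kinase, the step before, was at 5.55 and 10.7 CPM in WT and 6.22 and 7.89 CPM in G784E, where both G784E values lay between the WT ones. Mvd, the decarboxylase of the step after, was at 15.8 and 10.1 CPM in WT and 11.1 and 11.7 CPM in G784E, again between the WT values. The 95% intervals of their log2 fold changes, -1.08 to 0.67 for Mvk and -0.85 to 0.49 for Mvd, are wide: that of Mvk holds the value of Pmvk, and that of Mvd does not.

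Acat2, the cytosolic thiolase that opens the pathway, was at 45.7 and 41.3 CPM in WT and 37.0 and 42.6 CPM in G784E, with overlap (log2 fold change -0.12, SE 0.22; edgeR, adjusted p = 0.974). Idi1, isopentenyl-diphosphate isomerase, was at 3.96 and 5.99 CPM in WT and 3.60 and 4.95 CPM in G784E, also with overlap. Fdps, farnesyl diphosphate synthase, was at 9.64 and 4.87 CPM in WT and 4.75 and 4.83 CPM in G784E, where WT replicate 2 was almost level with the G784E libraries and WT replicate 1 stood alone. Acat2, Idi1 and Fdps have near-identical copies. Transcripts of 2, 3 and 5 other annotated genes matched 65.6%, 33.3% and 91.4% of their lengths at 95% identity or more, and reads placed in more than 1 position were not counted for any gene, so their levels are uncertain. A protein-coding gene on the same strand, Gm43738, overlaps 77.4% of the exon length of Fdps, and a gene on the other strand 10.7% of that of Idi1. Hmgcs1, the synthase that forms HMG-CoA, was listed at 0 in all 4 libraries, as were 1235 of the 24428 genes, and was not tested. Its only annotated match was an antisense gene over 13.3% of its length, and the 0 is given as listed, not read as a lack of expression.

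The late sterol genes mostly had lower values in G784E, at a median log2 fold change of -0.36. All 11 were tested and 0 passed. In edgeR 4 had an unadjusted p under 0.05, all with lower values in G784E, against 6.48% of tested genes on that side. For 7 both G784E libraries lay below both WT libraries, against 19.4% of tested genes. Mean values were lower for each listed gene from Fdft1 to Hsd17b7, in pathway order, and close to level for Ebp, Sc5d and Dhcr7.

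Fdft1, squalene synthase, the first step that leads to sterols alone, was at 101 and 79.6 CPM in WT and 58.1 and 67.1 CPM in G784E. Sqle, squalene epoxidase, a rate-limiting enzyme, was at 132 and 138 CPM in WT and 99.2 and 97.3 CPM in G784E. Lss, the cyclase that makes lanosterol, was at 79.5 and 74.3 CPM in WT and 69.0 and 57.4 CPM in G784E. None of these 3 genes overlapped between groups, and their log2 fold changes were -0.52 (SE 0.21), -0.46 (SE 0.20) and -0.28 (SE 0.21), with 0.277, 0.336 and 0.727 as the adjusted p from edgeR. The exons of Fdft1 are overlapped over 20.9% of their length by Ctsb, on the other strand, and matched over 54.7% by copies. Ctsb was at a mean of 96.3 CPM in WT and 76.2 CPM in G784E, and its part in the Fdft1 values was not tested.

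Cyp51, the lanosterol demethylase, was at 80.2 and 93.1 CPM in WT and 47.3 and 61.7 CPM in G784E. Both G784E values were below both WT values, and among members its unadjusted p (0.00458) was the smallest after that of Pmvk. Its log2 fold change was -0.67 (SE 0.21, 95% interval -1.10 to -0.23), which did not pass (edgeR, adjusted p = 0.118). It passed with upper-quartile scaling (-0.67, edgeR, adjusted p = 0.0495), by limma-voom (-0.67, adjusted p = 0.0439), and without G784E replicate 2 (-0.85, edgeR, adjusted p = 0.0113). Over the 12 alternatives its adjusted p ran from 0.0113 to 0.619.

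Tm7sf2, a sterol C14-reductase, was at 9.51 and 7.11 CPM in WT and 4.09 and 4.95 CPM in G784E. It had the lowest log2 fold change of the late genes, -0.87, and a wide SE of 0.47 at this low level (edgeR, adjusted p = 0.515). Lbr, for another sterol C14-reductase, was placed in the list of isoprenoid branches and acetyl-CoA supply. It was at 111 and 133 CPM in WT and 96.0 and 137 CPM in G784E, with overlap (-0.06, SE 0.21; edgeR, adjusted p = 0.998). Msmo1, the C4-methyl oxidase, was at 43.2 and 40.8 CPM in WT and 22.7 and 33.8 CPM in G784E, without overlap (-0.56, SE 0.24; edgeR, adjusted p = 0.319). It passed without G784E replicate 2 (-0.86, edgeR, adjusted p = 0.0261), and its adjusted p ran from 0.0261 to 0.978. Nsdhl, the C4-decarboxylating dehydrogenase, was at 39.4 and 48.1 CPM in WT and 28.3 and 39.7 CPM in G784E, where G784E replicate 2 was just above WT replicate 1. Hsd17b7, the 3-ketosteroid reductase of the same complex, was at 26.7 and 28.4 CPM in WT and 20.6 and 24.0 CPM in G784E, without overlap. The log2 fold changes of these last 2 genes were -0.36 (SE 0.23) and -0.30 (SE 0.24).

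The 3 enzymes that finish the sterol nucleus overlapped between groups. Ebp, the sterol isomerase, was at 5.94 and 3.55 CPM in WT and 4.58 and 4.95 CPM in G784E. Sc5d, the C5-desaturase, was at 16.9 and 19.3 CPM in WT and 20.9 and 13.8 CPM in G784E. Dhcr7, which makes cholesterol from its last precursor in one branch, was at 66.7 and 43.0 CPM in WT and 66.4 and 53.5 CPM in G784E. For Dhcr7 both G784E values lay within the range of the WT values, and the 95% interval of its log2 fold change (0.13) was -0.35 to 0.61. The intervals of Ebp (-1.19 to 1.21) and Sc5d (-0.65 to 0.51) hold the values of Cyp51 and Sqle respectively. Whether the last 3 steps differ from the earlier ones was not tested.

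**Figure D3:**
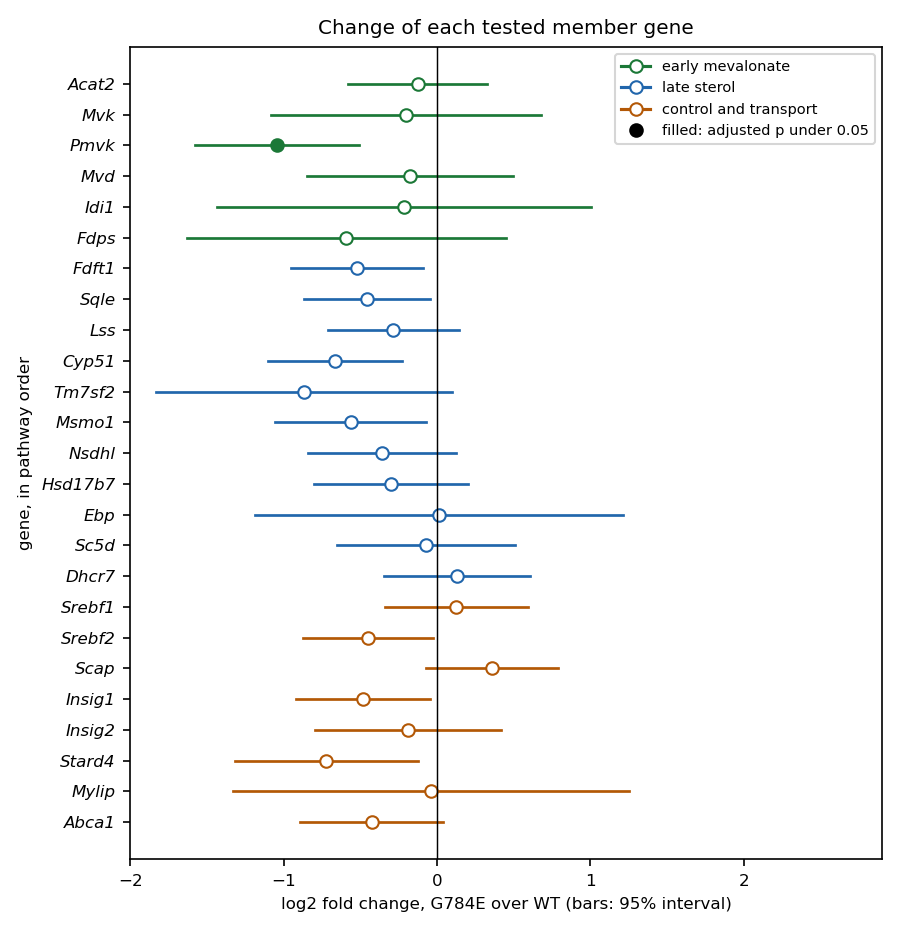
log2 fold change (x axis, G784E over WT) of each of the 25 tested members in pathway order, with 95% intervals from edgeR; filled circles have an adjusted p under 0.05. Pmvk, at -1.04, is the filled one. The circles from Fdft1 to Hsd17b7 lie left of 0, and those of Ebp, Sc5d and Dhcr7 lie close to 0. The intervals of Lss, Tm7sf2, Nsdhl, Hsd17b7, Ebp, Sc5d and Dhcr7 cross 0.

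In the control and transport group, 8 of 8 genes were tested, 0 passed, and the median log2 fold change was -0.31. For 4 of the 8 both G784E libraries lay below both WT libraries and for 1 above, against 19.4% of tested genes on each side. Srebf2, the gene for SREBP2, was at 130 and 140 CPM in WT and 87.5 and 109.8 CPM in G784E. Insig1, the sterol-responsive INSIG gene, was at 60.3 and 58.5 CPM in WT and 39.1 and 45.7 CPM in G784E. Stard4, a cytosolic sterol carrier and SREBP2 target, was at 21.9 and 20.0 CPM in WT and 15.7 and 9.89 CPM in G784E. All 3 genes had every G784E value below every WT value. Their log2 fold changes were -0.45 (SE 0.20), -0.48 (SE 0.21) and -0.72 (SE 0.29), and the adjusted p from edgeR were 0.379, 0.345 and 0.276. Stard4 passed without G784E replicate 1 (-1.06, edgeR, adjusted p = 0.0309; range over the 12 alternatives 0.0309 to 0.955).

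Of the other control genes, Srebf1, Scap and Insig2 did not share this order. Srebf1, for SREBP1, which mainly drives fatty acid genes, was at 35.7 and 37.2 CPM in WT and 35.0 and 44.3 CPM in G784E, with overlap. Scap, the sterol-sensing escort, was at 48.5 and 58.2 CPM in WT and 68.6 and 68.3 CPM in G784E, the one member with both G784E values above both WT values (log2 fold change 0.36, SE 0.21; edgeR, adjusted p = 0.575). An 18.6% share of the exon length of Scap is overlapped by an annotated gene on the other strand. Insig2, the second INSIG gene, was at 16.0 and 15.7 CPM in WT and 11.3 and 16.4 CPM in G784E, where 1 G784E library was above and 1 below the WT values.

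Abca1 and Mylip, both known to respond to LXRs, did not pass. Abca1, the exporter that loads cholesterol onto apolipoprotein A-I, was at 44.0 and 49.95 CPM in WT and 30.3 and 39.5 CPM in G784E, without overlap (log2 fold change -0.43, SE 0.23; edgeR, adjusted p = 0.508). Mylip, the ubiquitin ligase that lowers lipoprotein receptors, was at 4.09 and 4.97 CPM in WT and 6.22 and 2.71 CPM in G784E. The G784E libraries lay on either side of the WT ones, and the 95% interval of its log2 fold change was -1.33 to 1.25.

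Levels were compared between genes per kilobase of exon (GENCODE M21, build GRCm38, matched by symbol for all 26 members). In WT, Sqle was highest at 48.9 ± 1.47 CPM per kilobase (SD, n = 2), above the others in both libraries. Srebf2 followed at 26.6 ± 1.36 and Fdft1 at 24.4 ± 4.02 CPM per kilobase, which overlapped each other. Cyp51 and Insig1 (22.0 each), Msmo1 (20.5) and Nsdhl (20.2 CPM per kilobase) came next by mean. Cyp51 overlapped Fdft1, Insig1 and Msmo1, and Insig1 overlapped Fdft1. Nsdhl overlapped Fdft1, Cyp51, Insig1 and Msmo1, and Insig1 was above Msmo1 in both libraries. The order of Sqle and Srebf2 held in G784E, at means of 35.6 and 19.4 CPM per kilobase. Of tested members, Mylip (1.40), Idi1 (1.64) and Ebp (2.72 CPM per kilobase in WT) were lowest. Fdft1 and Idi1 are matched by copies over 54.7% and 33.3% of their lengths. Reads placed in more than 1 position were not counted, so the ranks of these genes are uncertain. Summed over each role, the CPM of the late sterol genes was 601 and 575 in WT and 441 and 458 in G784E, that of the early genes 107 and 106 against 78.4 and 85.3, and that of the control genes 360 and 384 against 294 and 337. In each role both G784E sums were below both WT sums. Genes with high counts weigh most in such sums, and no share over all genes was computed for them. Among the early genes Pmvk was at 26.4 and 33.1 CPM in WT and 15.7 and 13.3 CPM in G784E, while Acat2 overlapped between groups.

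Other genes of sterol and lipid metabolism fell in 3 cases. Soat1, which encodes the enzyme that stores cholesterol as ester, was at 95.7 and 111 CPM in WT and 51.1 and 45.5 CPM in G784E. It fell 2.14-fold (log2 fold change -1.10, SE 0.21), and edgeR gave an adjusted p of 0.00245. Lrpap1, for the chaperone of lipoprotein receptors of the megalin family, was at 101 and 87.0 CPM in WT and 29.5 and 31.8 CPM in G784E. It fell 3.07-fold (log2 fold change -1.62, SE 0.21), and edgeR gave an adjusted p of 3.63e-05. Of 22 tested genes of cholesterol traffic, storage and LXR, 8 had both G784E libraries below both WT libraries and 2 above. Over all tested genes, 19.4% lay on each side. Only Soat1 and Lrpap1 were called among the 22, against 1.89% of tested genes called lower, and the median was -0.13. Both calls held under all 12 alternatives that model the group alone.

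Of 21 fatty acid synthesis genes, 1 fell, against 1.89% of tested genes called lower, 20 did not pass, and the median was -0.09. For 8 of the 21 both G784E libraries lay below both WT libraries and for 3 above, against 19.4% of tested genes on each side. Scd1, the stearoyl-CoA desaturase gene that SREBP1 and LXRs control, was at 119 and 126 CPM in WT and 67.7 and 68.7 CPM in G784E. Its log2 fold change was -0.85 (SE 0.20), and edgeR gave an adjusted p of 0.0191. The call was lost without WT replicate 1 (-0.88, edgeR, adjusted p = 0.115) and without WT replicate 2 (-0.81, edgeR, adjusted p = 0.159), with a range of 0.00223 to 0.159. Fasn, the fatty acid synthase gene, named after its values were seen, was at 378 and 464 CPM in WT and 676 and 646 CPM in G784E. Every G784E value was above every WT value, but the log2 fold change of 0.65 (SE 0.20) did not pass (edgeR, adjusted p = 0.0953; 0.0112 to 0.782 over the 12 alternatives, 3 of which passed). Me1, for the malic enzyme that supplies NADPH, also named after its values were seen, was at 18.8 and 22.4 CPM in WT and 8.51 and 11.7 CPM in G784E, without overlap (log2 fold change -1.02, SE 0.29; edgeR, adjusted p = 0.0682). It passed without G784E replicate 2 (-1.25, edgeR, adjusted p = 0.0114). Srebf1, the SREBP gene of this branch, overlapped between groups, as given above.

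The remaining lists lay near 0. Of 18 genes of isoprenoid branches and acetyl-CoA supply 0 passed, with a median of -0.02. For 1 of these both G784E libraries lay below both WT libraries and for 4 above, against 19.4% of tested genes on each side. Of 16 genes of SREBP processing and sterol-regulated degradation 0 passed, with a median of -0.07. Mbtps1, for the site-1 protease that cuts SREBP, was at 147 and 147 CPM in WT and 132 and 166 CPM in G784E, and Mbtps2, for the site-2 protease, was at 78.4 and 76.2 CPM in WT and 44.7 and 79.2 CPM in G784E. Each overlapped between groups. Whether the members differ from these lists was not tested.

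**Figure D4:**
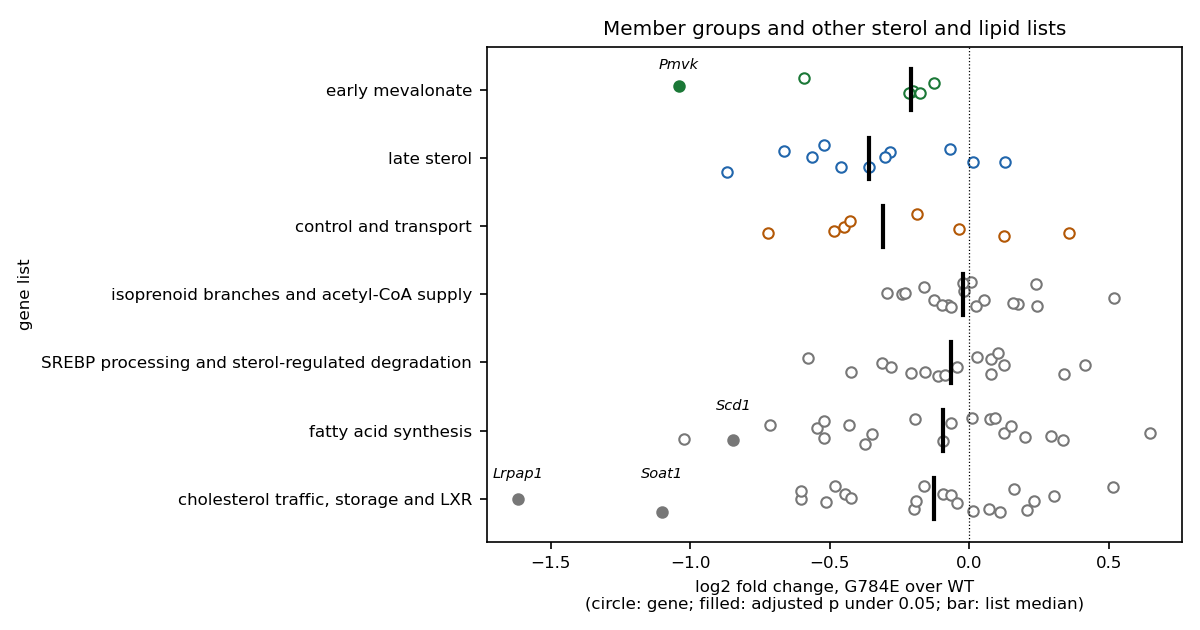
log2 fold change (x axis, G784E over WT) of every tested gene of the 3 member groups and of 4 other lists of sterol and lipid genes (y axis); filled circles have an adjusted p under 0.05 and black bars are list medians. The medians of the member groups are -0.21, -0.36 and -0.31, those of the other lists between -0.13 and -0.02, and the filled genes are Pmvk, Scd1, Soat1 and Lrpap1.

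Markers of primitive and visceral endoderm, a cell type that such cultures can hold, also differed between the groups. Of 17 listed markers 14 were tested and 12 fell, against 1.89% of tested genes called lower. The median log2 fold change of the 14 was -3.41. The summed CPM of the list was 5801 and 6123 in WT and 647 and 625 in G784E. Cubn, Col4a1 and Lrp2 had the smallest adjusted p. Amn, Ttr and Apoa1, markers of mature visceral endoderm, had 0 to 8 counts in every library. Fibroblast markers (12 tested of 14) had 0 calls and sums of 1330 and 1398 CPM in WT and 1382 and 1471 CPM in G784E. Most of these sums was Fn1, at 1090 and 1188 CPM in WT and 1127 and 1239 CPM in G784E, so they mainly follow that gene. For 1 of the 12 both G784E libraries lay below both WT libraries and for 1 above, against 19.4% of tested genes on each side. The summed CPM of the stem cell markers was 3503 and 4060 in WT and 4369 and 4342 in G784E. The part of the endoderm and stem cell marker differences in the values of Pmvk and the other sterol genes was not tested.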

How the data were processed

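Group and replicate number of the 4 libraries came from the labels. The authors deposited raw read counts per gene, 1 table per library, made with CASAVA 1.8.2, Bowtie2 2.1.0, HTSeq and DESeq2 on build mm9, per the submitters' processing notes. What annotation, counting mode or strandedness was used is not given in the sources used here, so reads of genes that overlap, on either strand, are uncertain. Summary rows (no feature, ambiguous, not unique), 83.3% to 88.7% of the reads in each table, were left out; reads not placed uniquely were 55.4% to 61.8%. Rn45s took 10.0% to 16.0% of gene counts.

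Counts were fitted with edgeR 4.0.16 (R 4.3.3): TMM scaling, filterByExpr (minimum count 10, minimum total 15; 15763 of 24428 genes kept), a quasi-likelihood test with group as the one term (2 residual degrees of freedom) and Benjamini-Hochberg adjustment over all tested genes at 0.05. The SE is the log2 fold change divided by the square root of F; 95% intervals use the moderated degrees of freedom. Intervals and the floor of 3 counts do not cover PCR copies. Chi-square per degree of freedom was 15.4 (G784E) and 9.22 (WT) between libraries of a group, so none was a copy. The fit was also run on simulated counts of independent libraries, without an effect shared by libraries of the same number. Its outcome is not given here and supports no call. The alternatives were scaling by RLE or upper quartile, no or a stricter filter (1 CPM in 2 libraries, 50 counts in total), DESeq2 1.42.0, limma-voom 3.58.1, a robust prior, a replicate block, no Rn45s, and each library left out with the tested genes kept, which takes a lone library to vary as those of the other group do.

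Members and lists were chosen with earlier results of these data known. Named were all 26 members, Smarca4 and, of each other list, up to 3 risen and 3 fallen genes with the smallest adjusted p; the other genes named were chosen after their values were seen. Copies were sought with blastn 2.17.0 (95% identity, 200 bases) in GENCODE M21 transcripts. Promoters are from RefSeq (GRCm38.p6), matched by symbol. As GRCm38 differs from mm9, these serve as descriptions and were not joined to the counts by position.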

Additional observations from a re-analysis of the deposited data

How the results depend on the processing

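With 2 libraries per group the common biological coefficient of variation was 0.317, and members with a mean under 10 CPM in WT (Mvk, Idi1, Fdps, Tm7sf2, Ebp and Mylip) had SEs of 0.42 to 0.62. No choice of scaling, filter or tool changed the sign of a member with the exception of Ebp, at 0.01, which was -0.0087 with upper-quartile scaling, -0.021 with no filter and -0.025 without Rn45s.

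Over all genes, 298 were lower and 106 higher. With limma-voom 186 were higher. With 1 library left out at a time, 156 to 532 were lower and 29 to 307 higher. The 1 member lower became 2 with upper-quartile scaling, 0 in DESeq2 (8 members had an unadjusted p under 0.05 in edgeR), 2 with limma-voom (Cyp51 joining Pmvk in both) and 0 to 3 with 1 library left out. Without G784E replicate 2 these were Cyp51, Msmo1 and Pmvk, and without G784E replicate 1 Pmvk and Stard4. Of fatty acid genes, 0 to 4 were lower with 1 library left out, against 1, and 1 was higher with upper-quartile scaling, DESeq2 and limma-voom, against 0. For SREBP processing genes lower the range was 0 to 1, and for traffic genes higher 0 to 1. The cause of these moves was not tested.

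With 1 library left out at a time, the sign of 9 members that were not called reversed at least once: the log2 fold change ran from -0.59 to 0.35 for Mvk, -0.47 to 0.18 for Mvd, -0.48 to 0.11 for Idi1, -0.32 to 0.42 for Ebp and -0.38 to 0.23 for Sc5d. It ran from -0.16 to 0.48 for Dhcr7, -0.036 to 0.30 for Srebf1, -0.47 to 0.065 for Insig2 and -0.72 to 0.47 for Mylip. Of the single-gene values under other settings, 365 kept sign and call, 15 gained a call, 4 lost it and 3 changed sign. These values include the replicate block and cover members and other named genes, among them endoderm markers far past the threshold.

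The replicate numbers of the 2 groups are not tied to a shared culture or day by the labels; the differences between replicate 1 and 2 correlated between groups at 0.487 over tested genes. With the replicate number as a block, 658 genes were lower and 546 higher, 5 members were lower (Pmvk, Cyp51, Fdft1, Sqle and Srebf2, the last 4 at edgeR adjusted p of 0.00495, 0.0427, 0.0287 and 0.0317), and 2 fatty acid genes were lower and 2 higher. The block also gave calls for Smarca4 (0.58, edgeR, adjusted p = 1.59e-05), Fasn (0.66, adjusted p = 8.66e-05) and Me1 (-1.03, adjusted p = 0.0209).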
